A study of Bos taurus with 6 samples.

Results

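The genes of antigen presentation described here were the major histocompatibility complex (MHC) genes of cattle, whose symbols start with BOLA-, together with CD74, B2M, CIITA and TAP2. They were chosen by gene symbol in the array's platform annotation, with results of the same comparison of large with small follicles already known, so their differences and their calls in the fit across all probe sets are given as descriptions, and no evidence is drawn from them. The rule found 15 genes, read by 25 probe sets among 24016 gene probe sets, with 20 of class II and 5 of class I. CD74 and CIITA matched no probe set by symbol and were not analysed here. Each probe set is a group of short probes read together, and some probe sets match several transcripts. The value of a probe set is a log2 signal, on which a step of 1 is a doubling.

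RNA came from bovine cumulus cells, the somatic cells that surround the oocyte in the follicle. Both groups came from ovaries of slaughtered crossbred cows (Bos indicus x Bos taurus), and in both the complexes had at least 3 compact cumulus layers and were stripped by pipetting before RNA was taken from pooled cells. The large-follicle group had 3 arrays of cells from complexes that the labels call competent, taken from follicles of 8 mm or more, and the small-follicle group had 3 arrays of cells from complexes called incompetent, taken from follicles of 1 to 3 mm. No cells were treated. The labels call the arrays biological replicates but give neither the ages nor the number of cows or complexes per pool, so the errors below measure the spread between these pools. In a bulk sample, fewer cells of a type and less RNA per cell cannot be told apart.

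Class II molecules are pairs of an alpha and a beta chain that show peptides from the endocytic pathway to helper T cells, and they are mainly made by macrophages, dendritic cells and B cells, although interferon gamma can induce them in other cells through the regulator CIITA. The DR and DQ chains are the classical pairs of cattle, DY is a pair found in ruminants, and the DM and DO proteins govern peptide loading. Class I molecules are a heavy chain paired with beta-2-microglobulin (B2M), present on nearly all nucleated cells, and they carry peptides that the TAP1 and TAP2 transporter moves into the endoplasmic reticulum.

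The array medians lay between 5.64 and 5.68 on the log2 scale, and 3 arrays per group limit the precision. Of 12 granulosa and cumulus markers 11 were measured, and 10 of these lay above the median probe set, which had a mean log2 signal of 5.67; the transcription factor FOXL2 lay below it, at 4.73. Follistatin (FST), at 13.94, and the inhibin beta A subunit (INHBA), at 13.50, had the highest means across all arrays. These markers moved with the groups: 6 were called higher in large follicles and 1, GATM, lower, and the list's mean deviation from its genes' means lay between 0.18 and 0.32 in large follicles and between −0.38 and −0.22 in small follicles. What part this has in the differences below was not tested. The 7 measured oocyte markers and the 11 T and NK cell markers all lay below that median. Of 9 theca and stroma markers 3 lay below it: CYP17A1 at 4.86, STAR at 5.39 and DCN at 5.39. The highest of the 9, INSL3, had a mean of 9.40. Of 11 measured macrophage and monocyte markers 8 lay below that median. An index of RNA integrity was taken as the mean log2 signal of 3′ minus 5′ probe sets over 6 bovine control transcripts. A higher value means relatively less signal from the 5′ end, a sign of less intact RNA. The index was 2.15, 1.77 and 2.01 in the large-follicle arrays and 2.67, 2.53 and 2.16 in the small-follicle arrays. Every large-follicle array was thus below every small-follicle array, with means of 1.98 ± 0.19 and 2.46 ± 0.27 (SD, n = 3 each) and a 2-sided exact permutation p of 0.1, the smallest that 3 against 3 arrays allow.

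In the limma fit across all gene probe sets with Benjamini-Hochberg adjustment, 3 of the 25 probe sets were called higher in large follicles at an adjusted p under 0.05 and 0 were called lower. These 3 were the beta chain BOLA-DQB1, the class I heavy chain BOLA-N and the peptide-loading chain BOLA-DMB. Of all gene probe sets 5.72% were called higher and 7.16% lower. Since this comparison was known when the genes were chosen, nothing is read from the difference between these shares. The difference was positive in 22 of the 25 probe sets, with a median of 0.30 on the log2 scale, against 52.3% positive and a median of 0.01 over all 24016 probe sets. At an unadjusted p under 0.05 there were 9 probe sets higher and 0 lower, where 27.0% of all probe sets passed in either direction.

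The large-follicle arrays all lay above the small-follicle arrays in 6 of the 25 probe sets, and below them in 0. Such a separation upwards was found in 14.7% of all probe sets and downwards in 16.3%. The 3 probe sets called higher were among the 6, and the others belonged to BOLA-DQA5, BOLA-DYA and B2M.

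Many of these probe sets were dim. Of the 25, 11 had a mean below 3.83, the lower quartile of all probe set means, 7 lay between that quartile and the median, and 7 were at or above the median. The 11 dimmest were all of class II, while all 5 of class I lay above the median. RMA values have no zero and no detection call, so a dim value is not a statement that the transcript was absent.

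**Figure D1:**
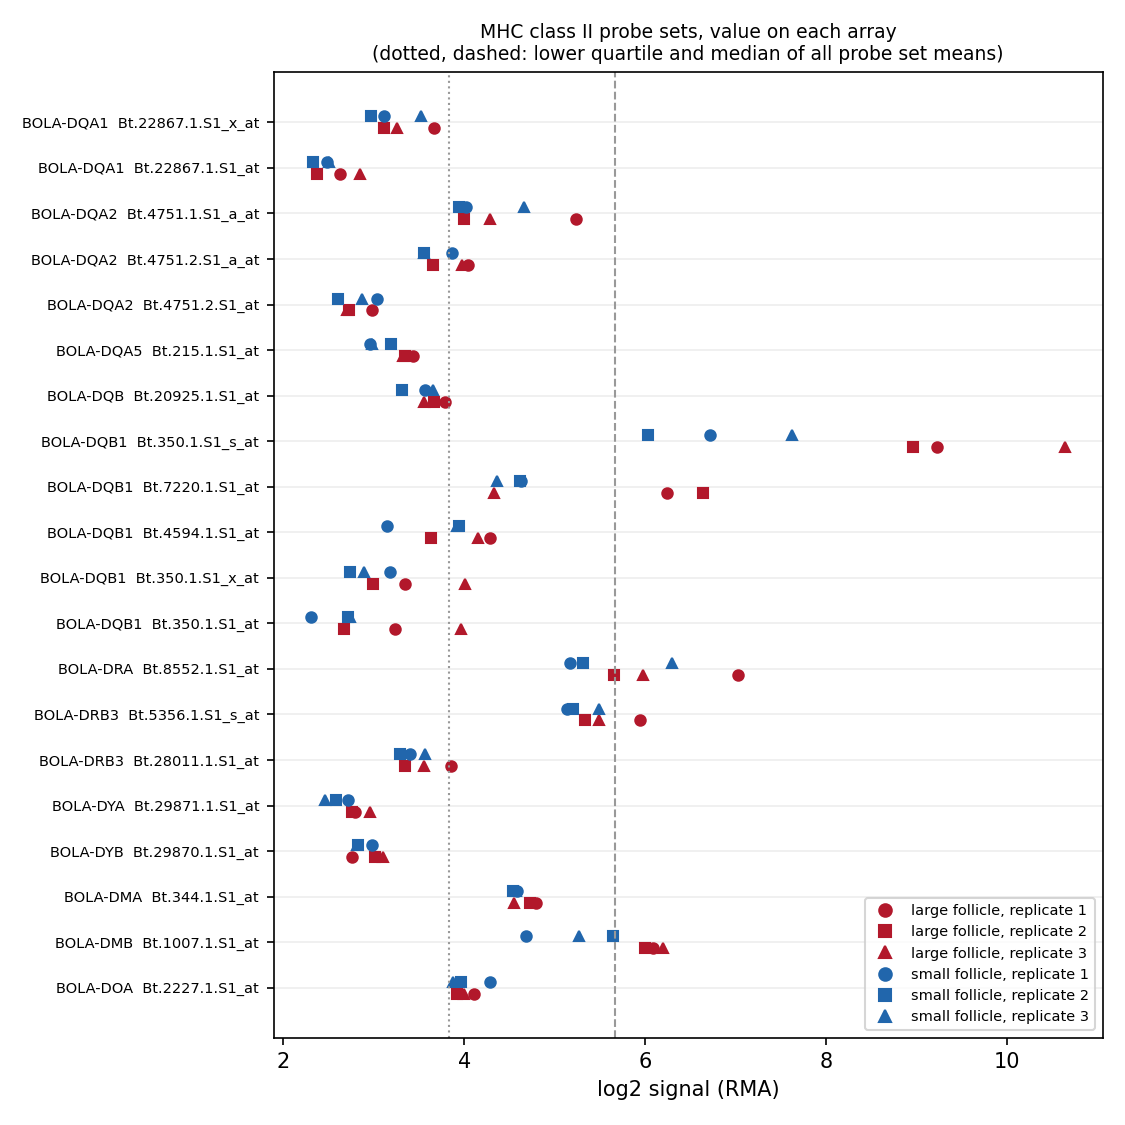
Log2 signal of each of the 20 class II probe sets in each of the 6 arrays, with large-follicle and small-follicle arrays as separate points and the probe sets in rows. The BOLA-DQB1 probe set with the suffix _s_at and BOLA-DMB show the 3 large-follicle points apart from and above the 3 small-follicle points, and most other rows overlap.

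The DQ genes had 12 probe sets of 5 genes, and 1 of them was called higher (8.33%, against 5.72% of all probe sets). BOLA-DQB1, a class II beta chain, was read by 5 probe sets that differed widely from each other. The probe set Bt.350.1.S1_s_at gave log2 signals of 9.23, 8.96 and 10.64 in the large-follicle arrays and 6.72, 6.03 and 7.62 in the small-follicle arrays. The groups did not overlap: the lowest large-follicle array lay 1.34 above the highest small-follicle array. The means were 9.61 ± 0.90 and 6.79 ± 0.80 (SD, n = 3 each), a difference of 2.82 ± 0.49 (SE) on the log2 scale or 7.06-fold, with a 95% interval in the fit from 1.70 to 3.94. The suffix _s_at means that its probes match several transcripts, so other class II beta transcripts can contribute to it.

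The other BOLA-DQB1 probe sets were not called. Bt.7220.1.S1_at read 6.24, 6.64 and 4.33 in the large-follicle arrays against 4.63, 4.62 and 4.36 in the small-follicle arrays. Its large-follicle replicate 3, the array with the highest signal for Bt.350.1.S1_s_at, was as dim as the small-follicle arrays. The difference was 1.20 ± 0.51 (SE), and without that array it was 1.90 and was called. The 2 probe sets of this gene therefore ordered the large-follicle arrays differently.

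Bt.350.1.S1_at read 3.23, 2.67 and 3.96 against 2.31, 2.71 and 2.74, a difference of 0.70 ± 0.29 (SE), and it was called only without large-follicle replicate 2, at 1.01. Bt.350.1.S1_x_at read 3.34, 2.99 and 4.01 against 3.18, 2.74 and 2.89, and Bt.4594.1.S1_at read 4.29, 3.63 and 4.15 against 3.15, 3.94 and 3.92. In each of these 3 dim probe sets the groups overlapped. Both Bt.350.1 probe sets among them were brightest in large-follicle replicate 3, as was Bt.350.1.S1_s_at.

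The DQ alpha probe sets showed small differences and were dim, with means from 2.53 to 4.36 against a median probe set of 5.67. At such signals a small difference does not show that the transcript changed little. BOLA-DQA5 read 3.43, 3.35 and 3.32 in large follicles and 2.96, 3.19 and 2.98 in small follicles, so that the groups did not overlap, with a difference of 0.32 ± 0.10 (SE) that was not called. The probe set Bt.4751.1.S1_a_at of BOLA-DQA2 read 5.24, 4.0 and 4.29 against 4.02, 3.94 and 4.66. Its large-follicle replicate 1 was high and its other 5 arrays overlapped, with a difference of 0.30 ± 0.32 (SE). The other probe sets of BOLA-DQA2 differed by 0.24 ± 0.14 and −0.03 ± 0.14 (SE), and the pair for BOLA-DQA1 by 0.18 ± 0.13 and 0.15 ± 0.18 (SE). For each of the 5 BOLA-DQA1 and BOLA-DQA2 probe sets the interval included 0 and the groups overlapped. The single probe set of BOLA-DQB, a second DQ beta locus in the annotation, differed by 0.16 ± 0.12 (SE).

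BOLA-DRA encodes the DR alpha chain, the partner of the DRB3 beta chain in the main class II molecule of cattle. It read 7.03, 5.66 and 5.98 in large follicles and 5.17, 5.31 and 6.30 in small follicles. Large-follicle replicate 1 was the highest array and small-follicle replicate 3 the second highest, so the groups overlapped. The means were 6.22 ± 0.72 and 5.59 ± 0.62 (SD, n = 3 each), and the difference of 0.63 ± 0.39 (SE) had a 95% interval from −0.26 to 1.52. With 1 array left out in turn it ranged from 0.23 to 0.98.

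BOLA-DRB3 was read by a pair of probe sets. Bt.5356.1.S1_s_at gave 5.94, 5.33 and 5.49 against 5.14, 5.20 and 5.49, a difference of 0.31 ± 0.17 (SE). Bt.28011.1.S1_at gave 3.85, 3.35 and 3.56 against 3.40, 3.29 and 3.57, a difference of 0.17 ± 0.14 (SE). In both, as in BOLA-DRA, large-follicle replicate 1 was the brightest large-follicle array and small-follicle replicate 3 the brightest small-follicle array. The interval of BOLA-DRA reaches past the difference seen for BOLA-DMB.

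The DY chains were dim. BOLA-DYA read 2.79, 2.76 and 2.96 in large follicles against 2.71, 2.58 and 2.46 in small follicles, where the groups were only 0.05 apart, and differed by 0.25 ± 0.11 (SE). BOLA-DYB read 2.76, 3.01 and 3.10 against 2.98, 2.82 and 2.81, and its groups overlapped. Over all 17 class II chain probe sets, 1 was called higher (5.88%), the groups were apart upwards in 3 (17.6%), and the median difference was 0.30 on the log2 scale. These shares were near those over all probe sets, 5.72% called higher and 14.7% apart upwards.

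Among the class II accessory chains, BOLA-DMB rose. It encodes the beta chain of DM, which exchanges the invariant chain fragment for peptide. Its log2 signal was 6.09, 6.00 and 6.20 in the large-follicle arrays and 4.68, 5.64 and 5.27 in the small-follicle arrays, with the groups 0.36 apart. The large-follicle arrays lay close together and the small-follicle arrays spread more, with means of 6.10 ± 0.10 and 5.20 ± 0.48 (SD, n = 3 each). The difference was 0.90 ± 0.22 (SE), or 1.87-fold, with a 95% interval from 0.41 to 1.39. This call was the least stable of the 3: it was lost when large-follicle replicate 1, 2 or 3 or small-follicle replicate 3 was left out, while the difference stayed between 0.85 and 0.95.

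BOLA-DMA, the alpha chain of the same heterodimer, did not show such a difference. Its signals were 4.79, 4.73 and 4.55 against 4.58, 4.54 and 4.57, and it differed by 0.13 ± 0.10 (SE). BOLA-DOA, a chain of the DO modulator of DM, read 4.11, 3.92 and 4.0 against 4.28, 3.96 and 3.88 and differed by −0.03 ± 0.13 (SE). In the RefSeq annotation of ARS-UCD2.0, BOLA-DMB and BOLA-DMA are neighbouring genes, separated from BOLA-DOA by BRD2. BOLA-DQA2, BOLA-DQB, BOLA-DQA5 and BOLA-DQB1 also follow each other there, so the called BOLA-DQB1 and BOLA-DMB probe sets each had a neighbour among these genes that was not called.

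**Figure D2:**
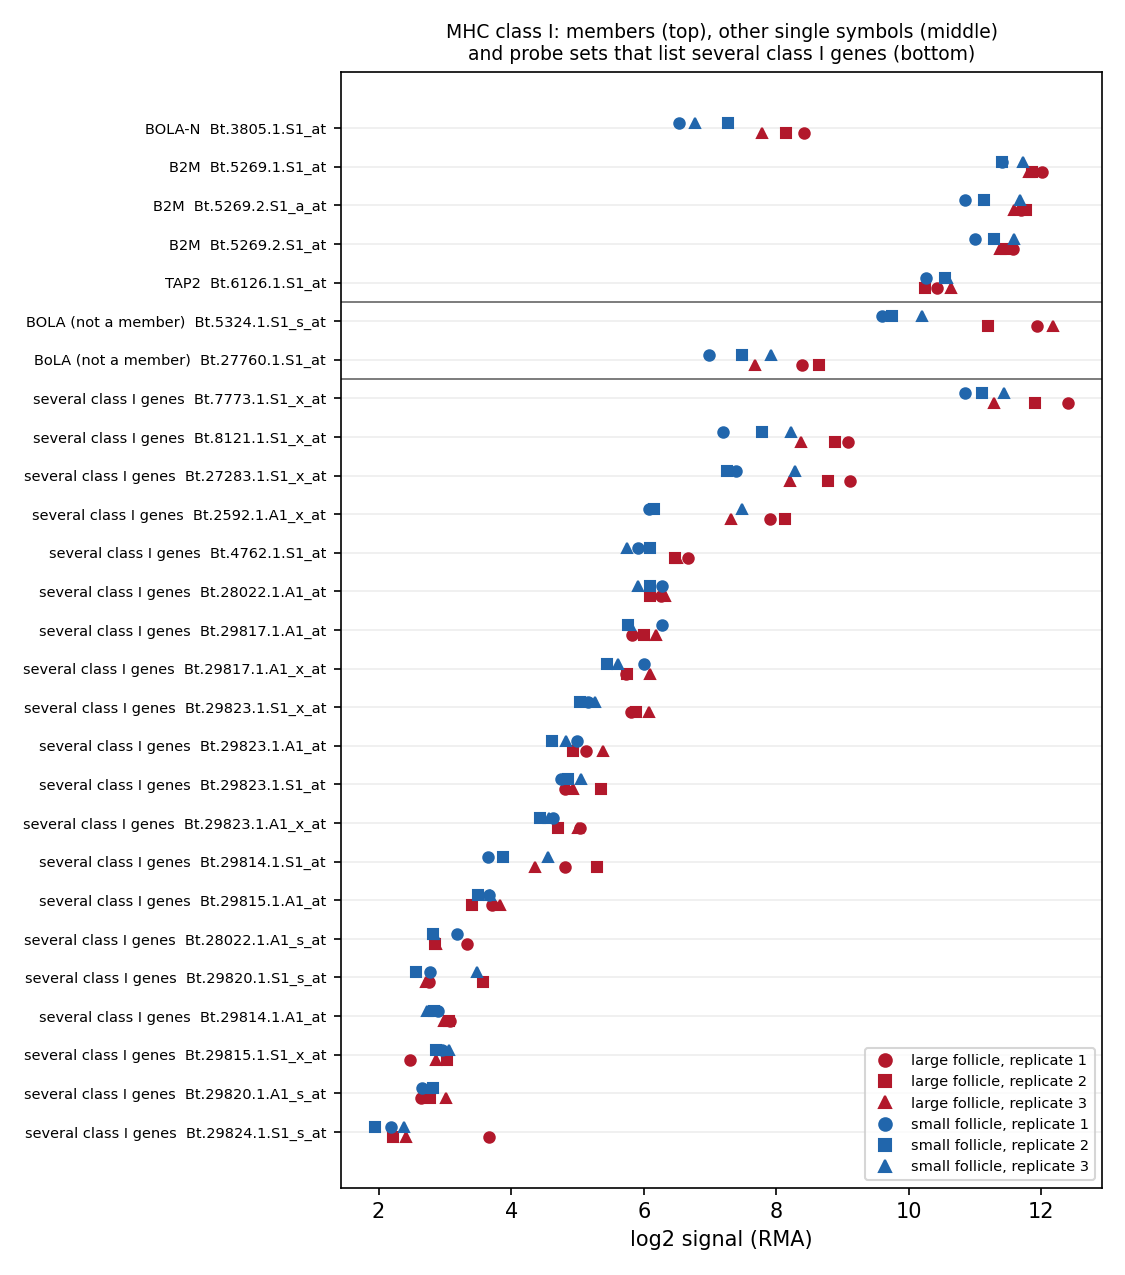
Log2 signal of class I probe sets in each of the 6 arrays, with large-follicle and small-follicle arrays as separate points. The 5 chosen probe sets are at the top and the pair named BOLA and BoLA in the middle. The 20 that list several class I genes are at the bottom. BOLA-N shows the groups apart by 0.52, the first B2M row shows them apart by 0.09, and the other B2M rows and TAP2 overlap.

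Among class I genes, the heavy chain BOLA-N was read alone by 1 probe set, which was higher in large follicles. Its log2 signal was 8.42, 8.15 and 7.79 in the large-follicle arrays and 6.53, 7.27 and 6.77 in the small-follicle arrays. Every large-follicle array lay at least 0.52 above every small-follicle array. The means were 8.12 ± 0.32 and 6.86 ± 0.38 (SD, n = 3 each), and the difference was 1.26 ± 0.22 (SE) or 2.40-fold, with a 95% interval from 0.77 to 1.76. Its call held with each single array left out, where the difference ran from 1.10 to 1.47. Unlike the called BOLA-DQB1 probe set, it was lowest among large-follicle arrays in replicate 3. Probe sets that list BOLA-N with other class I genes differed by −0.17 to 1.21, and in most of them the groups overlapped.

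B2M, the light chain that all class I heavy chains share, was bright in every array. Bt.5269.1.S1_at read 12.01, 11.86 and 11.81 against 11.41, 11.40 and 11.72. The groups did not overlap but were only 0.09 apart, and the difference of 0.38 ± 0.12 (SE) was not called. A second probe set, Bt.5269.2.S1_a_at, read 11.69, 11.77 and 11.58 against 10.85, 11.13 and 11.68, a difference of 0.46 ± 0.19 (SE). The third, Bt.5269.2.S1_at, read 11.57, 11.46 and 11.38 against 11.0, 11.28 and 11.58, a difference of 0.18 ± 0.15 (SE). In all 3, small-follicle replicate 3 was the brightest small-follicle array, and without it the first 2 were called, at 0.49 and 0.69.

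TAP2, a subunit of the peptide transporter, did not separate the groups. It read 10.43, 10.24 and 10.63 in large follicles and 10.26, 10.54 and 10.57 in small follicles. The difference was −0.02 ± 0.13 (SE), with a 95% interval from −0.33 to 0.29. Its partner TAP1, which is not among the chosen genes and is given as the other subunit, read 7.42, 6.96 and 7.74 against 6.92, 7.07 and 6.83, a difference of 0.43 ± 0.19 (SE) that was not called.

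The platform annotation holds more class I probe sets than the rule takes. Of 20 that list several class I genes, 3 were called higher and 0 lower, with 10 higher and 0 lower at an unadjusted p under 0.05 in the limma fit, which 27.0% of all probe sets passed in either direction. In these 20 the difference was positive in 19, with a median of 0.28 on the log2 scale, and the groups were apart upwards in 5. Over all probe sets 5.72% were called higher, 52.3% were positive and 14.7% were apart upwards. Many of the 20 list the same genes, so they are not separate readings. Among the 8 of them at or above the median signal, 2 were called and all 8 differences were positive, with a median of 0.68. No gene is named from them, since their probes match several class I loci.

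A pair of further probe sets carries the bare symbol BOLA or BoLA and falls outside the rule. The one named BOLA read 11.93, 11.20 and 12.18 in large follicles and 9.60, 9.75 and 10.20 in small follicles. Its groups were apart, and it was called higher with a difference of 1.92 ± 0.25 (SE). The one named BoLA read 8.39, 8.65 and 7.68 against 6.98, 7.48 and 7.92, overlapped, and was not called, with a difference of 0.78 ± 0.29 (SE). Called and overlapping probe sets thus both occur among those annotated to class I.

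**Figure D3:**
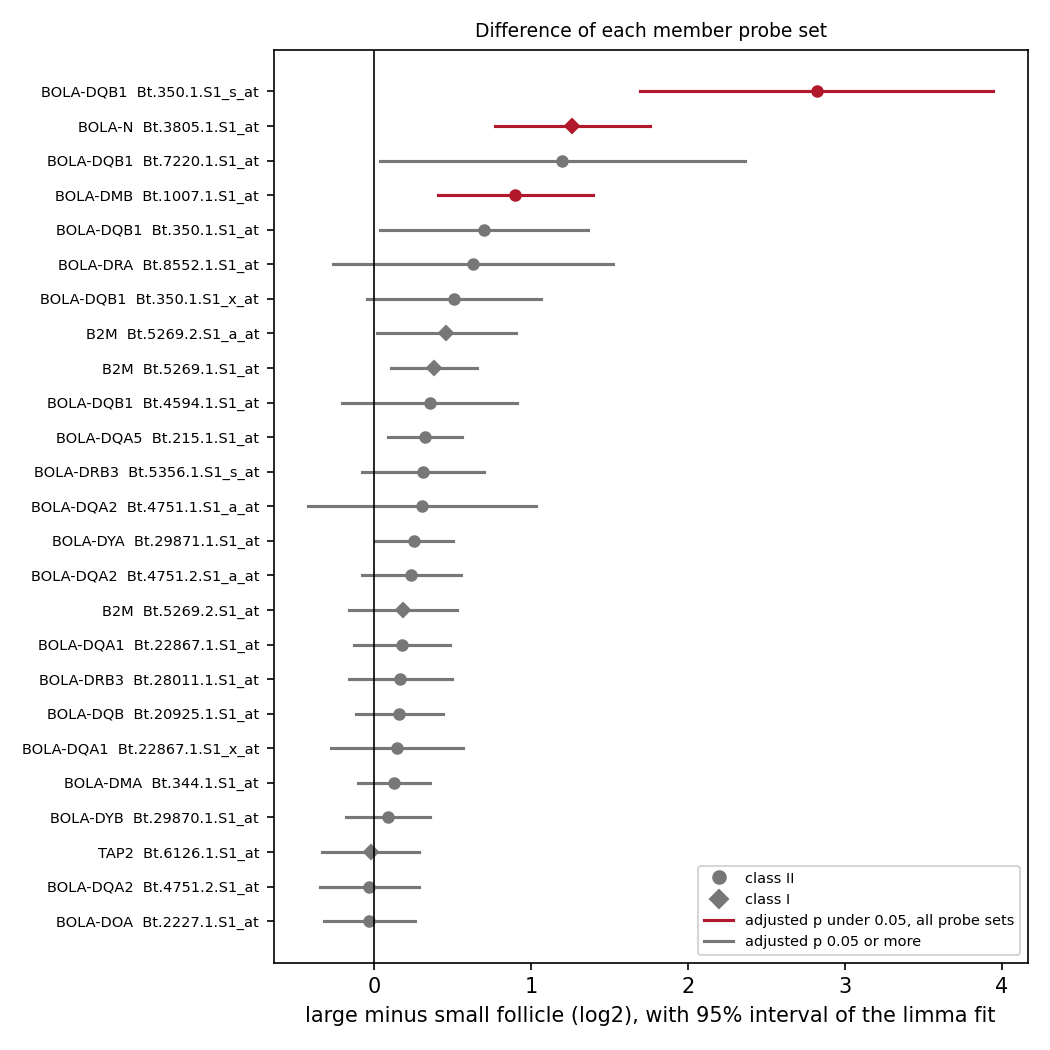
Difference in log2 signal, large minus small follicles, for each of the 25 probe sets, with its 95% interval from the limma fit and the called probe sets marked. The 3 called probe sets lie at 2.82, 1.26 and 0.90, and 22 of the 25 points lie above 0.

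All 3 calls were lost when the RNA integrity index was added to the fit as a covariate. The differences were then 2.34 for BOLA-DQB1, 1.31 for BOLA-N and 0.73 for BOLA-DMB, and calls over the whole table fell to 99 higher and 116 lower. The index separates the groups, so it shares its variation with follicle size in these 6 arrays, and what part it has in the differences was not tested.

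Genes that work with class II molecules were read from a list of 17, of which 15 were measured. Of these 1 was called higher and 1 lower, and the median difference was 0.17 on the log2 scale. For this list and those below, the shares over all probe sets were 5.72% called higher and 7.16% called lower. An unadjusted p under 0.05 in limma was found for 27.0% of all probe sets. IFI30, the lysosomal thiol reductase that reduces disulfide bonds of antigens before loading, rose: it read 7.23, 7.19 and 6.78 against 4.96, 5.82 and 5.66. Its difference was 1.59 ± 0.23 (SE; limma adjusted p = 0.00423). NFYB, a subunit of the promoter factor NF-Y that also acts at many other promoters, fell by 0.45 ± 0.09 (SE; limma adjusted p = 0.0194).

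The lysosomal proteases CTSS and CTSH, singled out after their values were seen, were not called. CTSS, which degrades the invariant chain, read 7.96, 6.29 and 5.58 against 4.77, 5.23 and 6.93. CTSH read 7.63, 6.20 and 6.10 against 5.74, 5.90 and 7.21. Both were highest in large-follicle replicate 1 and next highest in small-follicle replicate 3, the same arrays as for BOLA-DRA.

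Of 16 genes that work with class I molecules 15 were measured, with 1 called higher, 0 lower and a median difference of 0.13 on the log2 scale; at an unadjusted p under 0.05 in limma, 4 were higher and 2 lower. The called gene was TAPBPL, a tapasin-related peptide editor, which read 8.27, 8.28 and 8.36 against 7.63, 7.86 and 8.00. Its difference was 0.47 ± 0.12 (SE; limma adjusted p = 0.0318). The immunoproteasome subunits PSMB8, PSMB9 and PSMB10, named after their values were seen, differed by 0.24 ± 0.17, 0.19 ± 0.15 and 0.56 ± 0.23 (SE). None of these 3 was called, although for PSMB10 the groups did not overlap, with 9.81, 9.73 and 9.90 against 8.65, 9.44 and 9.67.

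Interferon signalling is known to raise both classes. Of 15 genes of interferon gamma input 9 were measured, 1 was called higher and 0 lower, with 3 higher and 0 lower at an unadjusted p under 0.05 in limma. JAK1, a kinase of the interferon receptors and of many cytokine receptors, was the called gene, with a difference of 0.44 ± 0.10 (SE; limma adjusted p = 0.0279). All 9 differences were positive, with a median of 0.15. 

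Of 25 interferon-stimulated genes 18 were measured. In the limma fit 10 of them were called higher and 0 lower, against 5.72% and 7.16% of all probe sets. The difference was positive in 17, with a median of 0.84 on the log2 scale. At an unadjusted p under 0.05 in limma, 12 were higher and 0 lower, and 27.0% of all probe sets passed in either direction. The ubiquitin-like protein ISG15 read 9.57, 9.33 and 11.17 against 7.36, 8.13 and 8.03, and its difference was 2.18 ± 0.44 (SE; limma adjusted p = 0.0163). Like the called BOLA-DQB1 probe set, it was highest in large-follicle replicate 3. IRF9, the DNA-binding part of the interferon-stimulated complex, differed by 1.56 ± 0.18 (SE; limma adjusted p = 0.00219), and the membrane protein IFITM1 by 1.30 ± 0.23 (SE; limma adjusted p = 0.0104). The antiviral kinase EIF2AK2 and the antiviral enzyme RSAD2 differed by 0.94 ± 0.20 and 0.81 ± 0.18 (SE) and were called as well.

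Markers of cells that carry class II molecules were measured beside these genes. Of 13 macrophage and monocyte markers 11 were measured, and 0 were called. At an unadjusted p under 0.05 in limma, 3 were higher and 0 lower. The difference was positive in all 11, against 52.3% of all probe sets, with a median of 0.58. The mean of the list, as each array's deviation from its genes' means, was 0.97, 0.04 and −0.19 in the large-follicle arrays and −0.46, −0.51 and 0.14 in the small-follicle arrays. The groups thus overlapped, and large-follicle replicate 1 stood above the other 5 arrays. The 3 with an unadjusted p under 0.05 were the complement C1q chains, which macrophages make. C1QA read 7.79, 6.79 and 6.23 against 5.35, 5.24 and 6.66, and C1QB 6.43, 5.42 and 5.01 against 4.66, 4.27 and 5.18. C1QC read 5.67, 4.91 and 4.83 against 4.47, 4.53 and 4.65, and of these 3 it alone had groups that did not overlap.

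All 11 pan-leukocyte markers were measured and all lay below the median probe set. The difference was positive in all 11, with a median of 0.30 on the log2 scale. At an unadjusted p under 0.05 in limma, 3 were higher and 0 lower. CORO1A and LCP1, which encode actin-binding proteins of leukocytes, rose by 0.62 ± 0.16 and 0.89 ± 0.24 (SE; limma adjusted p = 0.0371 and 0.0457), and 0 fell. The general leukocyte antigen PTPRC was dim, with a mean log2 signal of 3.53, below the lower quartile, and a difference of 0.08 ± 0.14 (SE). The list's mean deviation was 0.64, 0.02 and −0.03 in large follicles and −0.30, −0.50 and 0.18 in small follicles, again highest in large-follicle replicate 1 and next in small-follicle replicate 3.

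Of 8 dendritic cell markers 2 were measured, and of 7 B cell markers 3; all lay below the median probe set and 0 were called, with 1 of each list higher and 0 lower at an unadjusted p under 0.05 in limma. The 11 T and NK cell markers had 0 called, also 0 at an unadjusted p under 0.05 in limma, and a median difference of 0.05. The list means of T and NK cell markers lay between −0.11 and 0.07 in large follicles and between −0.08 and 0.13 in small follicles. What part leukocytes in the pools have in the class II values was not tested.

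**Figure D4:**
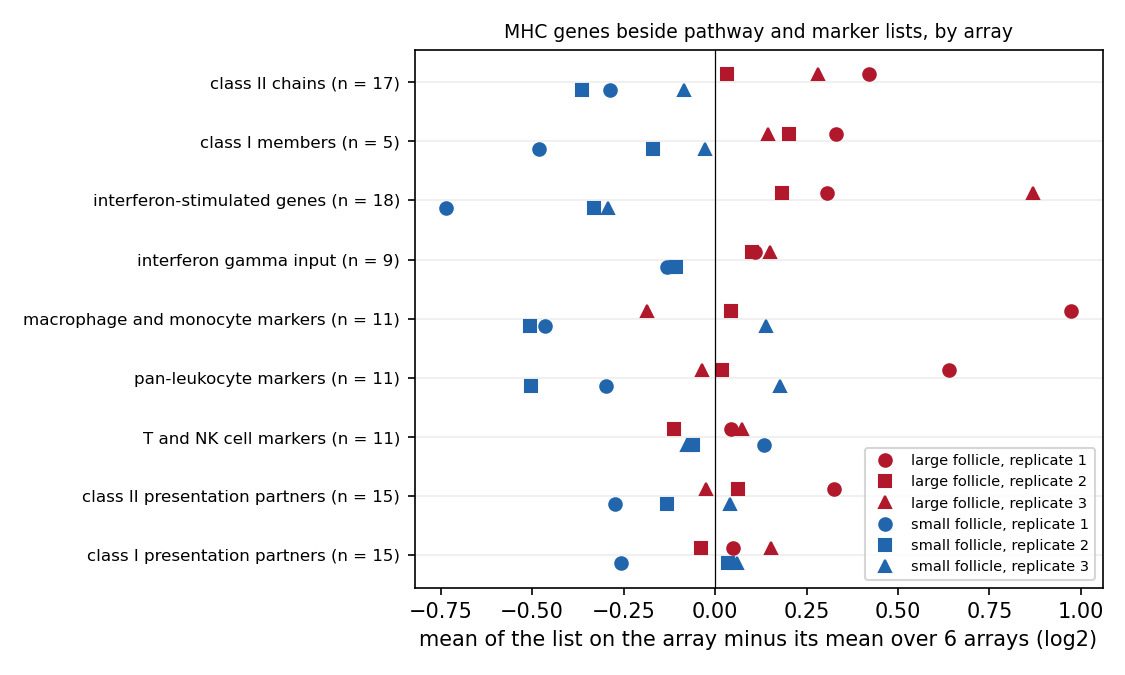
Mean deviation of each gene list from its genes' means in each of the 6 arrays, on the log2 scale, with large-follicle and small-follicle arrays as separate points. The class II chains and interferon-stimulated genes have all large-follicle arrays above all small-follicle arrays, for the class II chains by a narrow gap, from −0.08 to 0.03. Other lists are apart too, such as class I and interferon gamma input. The macrophage and leukocyte lists overlap. They are highest in large-follicle replicate 1, at 0.97 and 0.64, as are the class II chains, at 0.42. All 3 are highest among small-follicle arrays in replicate 3. The interferon-stimulated genes are highest in large-follicle replicate 3, at 0.87.

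The class II chains as a set had mean deviations of 0.42, 0.03 and 0.28 in the large-follicle arrays and −0.29, −0.36 and −0.08 in the small-follicle arrays. These did not overlap, but the gap was narrow, from −0.08 for the highest small-follicle array to 0.03 for the lowest large-follicle array. Of the 17 probe sets in these means, 16 were not called. Among them, BOLA-DQB1 Bt.7220.1.S1_at read 4.36 in the former array and 6.64 in the latter. Whether the separation holds without single probe sets was not tested. The range within large follicles was wide. Class I deviations were 0.33, 0.20 and 0.15 against −0.48, −0.17 and −0.03. Interferon-stimulated genes had 0.31, 0.18 and 0.87 against −0.74, −0.33 and −0.29, with replicate 3 the highest of the large-follicle arrays.

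Which array was brightest within its group differed between the lists, a pattern noticed after the values were seen and given as counts alone. Large-follicle replicate 1 and small-follicle replicate 3 were both the brightest of their groups in 8 of the 25 probe sets, 6 of them among the 17 class II chain probe sets. This held for 8 of 11 macrophage markers, 8 of 11 pan-leukocyte markers, 4 of 9 theca and stroma markers, 1 of 18 interferon-stimulated genes, and 8.07% of all probe sets, so it was not limited to leukocyte markers. Large-follicle replicate 3 was the brightest of its group in 6 of the 17 chain probe sets, 14 of 18 interferon-stimulated genes, 10 of 15 class I partner genes, 7 of 11 T and NK cell markers, 1 of 11 macrophage markers, and 39.8% of all probe sets. The 35.3% of chain probe sets that this makes is below the share over all probe sets. BOLA-DRA, the BOLA-DRB3 pair, BOLA-DQB, Bt.4751.1.S1_a_at of BOLA-DQA2 and Bt.22867.1.S1_x_at of BOLA-DQA1 had the first pattern. The 3 Bt.350.1 probe sets of BOLA-DQB1, BOLA-DYA, BOLA-DYB and Bt.22867.1.S1_at of BOLA-DQA1 had the second. The BOLA-DQA1 pair was thus split between the patterns.

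The genes whose pattern was most like that of the class II chains were found by Pearson correlation over the 6 arrays with the mean of the 2 chain probe sets above the median signal, Bt.350.1.S1_s_at and BOLA-DRA. Among 7796 candidate probe sets of single genes above that median, the 5 closest were TOMM7 (r = 0.984), DDX41 (r = 0.982), BCAR3 (r = 0.977), DOCK6 (r = 0.976) and LOC282255 (r = 0.975), and 191 candidates had r over 0.9. For BOLA-N they were LYPLA2 (r = 0.995), TP53I13 (r = 0.991), TNFRSF6B (r = 0.988), LIX1L (r = 0.986) and STRAP (r = 0.985), and 363 had r over 0.9. The points share the same 6 arrays and their split in 2 groups, so that any gene differing between the groups correlates, and the values are descriptions without a test. LOC282255 differed by 1.42 ± 0.24 (SE) and TNFRSF6B by 1.10 ± 0.19 (SE), while TOMM7 differed by 0.12 ± 0.09 (SE), so a high likeness came with differences of unequal size.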

How the data were processed

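The deposited table holds log2 probe set signals of 6 bovine Affymetrix arrays, for which the submitters' processing notes name RMA as the authors' method. The program and its version were not given in the sources used here. Of 24128 probe sets, 112 controls were left out. Names came from the platform annotation (13292 probe sets with 1 symbol, 86 with several, 10638 with none), and 13 of the 15 genes matched RefSeq (ARS-UCD2.0), used for names and neighbours alone. Large minus small follicles was fitted by lmFit and eBayes of limma 3.58.1 under R 4.3.3, with no filter and no block. The fit had 4.28 prior degrees of freedom and 8.28 in total. Benjamini-Hochberg adjustment ran over 24016 probe sets at 0.05. The code was also run on simulated data with independent noise and no integrity difference between groups. That run does not bear on the calls here. The genes and lists were chosen with earlier results of these data known. Every chosen probe set is named. A list gene was read from its probe set with the highest mean; called genes of the 4 pathway lists are named, at most 5 with the smallest p, and otherwise the 2 with the smallest p. Other genes named from these lists (TAP1, CTSS, CTSH, PSMB8, PSMB9, PSMB10) and from the marker lists fall outside this rule and were chosen after their values were seen. Alternatives were left-out arrays, a replicate block, quantile and median scaling, a trended robust prior, array weights, a filter at the median, probe sets without _x_at and _s_at, and the integrity index as a covariate.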

Additional observations from a re-analysis of the deposited data

How the results depend on the processing

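The count of 3 chosen probe sets called higher was 0 with the integrity index as covariate (limma; 4 at an unadjusted p under 0.05), where calls over all probe sets were 99 higher and 116 lower and the class I median was −0.077. With single arrays left out, calls over all probe sets ranged from 787 to 1142 higher and from 828 to 1337 lower, against 1374 and 1720. Same-numbered arrays did not deviate together (r = −0.00, −0.05 and −0.34), so the numbers were not taken as pairs; with a replicate block 3 chosen probe sets were called, and 930 higher and 1034 lower over all. A filter at the median left 2 of the 20 class II probe sets, with a median of 1.725. BOLA-DQB1 Bt.350.1.S1_s_at was called in 12 of 13 alternatives (2.31 to 3.24), BOLA-N in 13 of 14 (1.10 to 1.47) and BOLA-DMB in 8 of 13 (0.64 to 1.12). No called probe set changed sign. Array number and dim probe sets limit what could be called.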
